A study of Mus musculus with 9 samples.

Results

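The 73 genes described here had their highest levels in the 3 libraries whose column headers carry the letter M. They were chosen by measured values: each reached at least 5 CPM (counts per 1e+06 counts of the library) in the lowest M library, and that library was at least 2 times the highest of the 6 libraries with the letters H and L. A set of 17 genes, most of them known macrophage markers and chemokines, was left out by name, and 11 of these also met the levels. Of the 51912 genes in the deposited tables, 10620 reached 5 CPM in the lowest M library without the genes left out, and the 73 are 0.687% of them. Because the M, H and L levels selected these genes, the differences between M and the other letters are given as a description, with no test.

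The series profiled pyramidal neurons of the hippocampus from male mice of strain C57BL/6 carrying Cre recombinase driven by the Camk2a (CamkIIα) promoter of forebrain excitatory neurons. Every mouse was injected with rAAV5-DIO-mCherry, an adeno-associated virus of serotype 5 whose red fluorescent reporter needs Cre, at 2.88e+08, 2.88e+09 or 2.88e+10 vector genomes, and the lowest dose served as the control. The labels describe no uninjected mice. Fluorescent cells were sorted from dissociated hippocampal slices 3 weeks later. The series describes 9 samples in 3 groups of 3 biological replicates, but the labels of the single libraries give no dose, no age and no number of animals. The letters M, H and L and the numbers 1 to 3 stand only in the headers and are not explained by the labels. They are therefore used as names of libraries, with no dose attached, and each library is given by its own value.

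Total gene counts were 13424364 to 19151596 in the M libraries, 12136830 to 13105465 in the H libraries and 15371545 to 16937257 in the L libraries. A gene with no count may still have had a level of up to 0.157 CPM in the deepest library and 0.247 CPM in the shallowest, a limit that covers only the error of counting. No pair of libraries agreed within sampling noise, but the H libraries lay far closer together than the others: chi-square per degree of freedom over genes was 24.3 to 33.6 between M libraries, 2.67 to 5.14 between H libraries and 27.2 to 38.9 between L libraries. The labelled cell type was present by its markers. The 7 pyramidal neuron genes, among them Slc17a7 and Camk2a, summed to 1742 to 1965 CPM in M, 3341 to 3791 CPM in H and 4024 to 5763 CPM in L libraries. Genes of other cells were present too, and are given with the marker lists.

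Macrophages of the brain's borders live in the meninges, around vessels and in the choroid plexus, apart from the microglia of the tissue itself. They are known for taking up macromolecules through scavenger receptors and lectins, for iron and lipid handling, and for releasing chemokines and complement components. They carry genes such as Mrc1, Cd163, Pf4 and Cbr2, while P2ry12, Tmem119 and Sall1 are typical of microglia. The transcription factors PU.1 (gene Spi1) and Maf act in macrophage gene regulation. Of the 73 genes, 15 stood on a list of border macrophage genes and 0 on a list of microglial genes. Of the genes on these lists, 29 and 14 reached 5 CPM in the lowest M library. The 73 are 0.687% of all genes at that level without those left out by name. At that share a count of 0 is no result about microglial genes. The lists were chosen with earlier results of these data known. In bulk RNA such as this, fewer cells of a type and less RNA per cell cannot be told apart.

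The summed level of the 73 genes was 5686, 4846 and 5194 CPM in M1 to M3, 1276, 1253 and 1296 CPM in H1 to H3, and 153, 204 and 116 CPM in L1 to L3. The M libraries were thus highest, as the choice of genes required, the H libraries intermediate and the L libraries lowest, and the letters did not overlap. Per gene, the median over the M libraries ranged from 5.59 to 391 CPM, with a median of 34.9 CPM. The median over the H libraries ranged from 0.154 to 74.3 CPM, with a median of 10.7 CPM. The median over the L libraries ranged from 0 to 24.4 CPM, with a median of 0.195 CPM. The lowest M library exceeded the highest other library by 2.01 to 20.8 times, with a median of 2.66. The ratio was at least 3 for 27 genes, at least 4 for 12, at least 5 for 9 and at least 10 for 1. All 73 genes had counts in every M and every H library, whereas 16, 12 and 15 of them had no count in L1, L2 and L3. By annotation 69 are protein-coding, 2 are antisense RNAs and 2 are long intergenic RNAs.

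**Figure D1:**
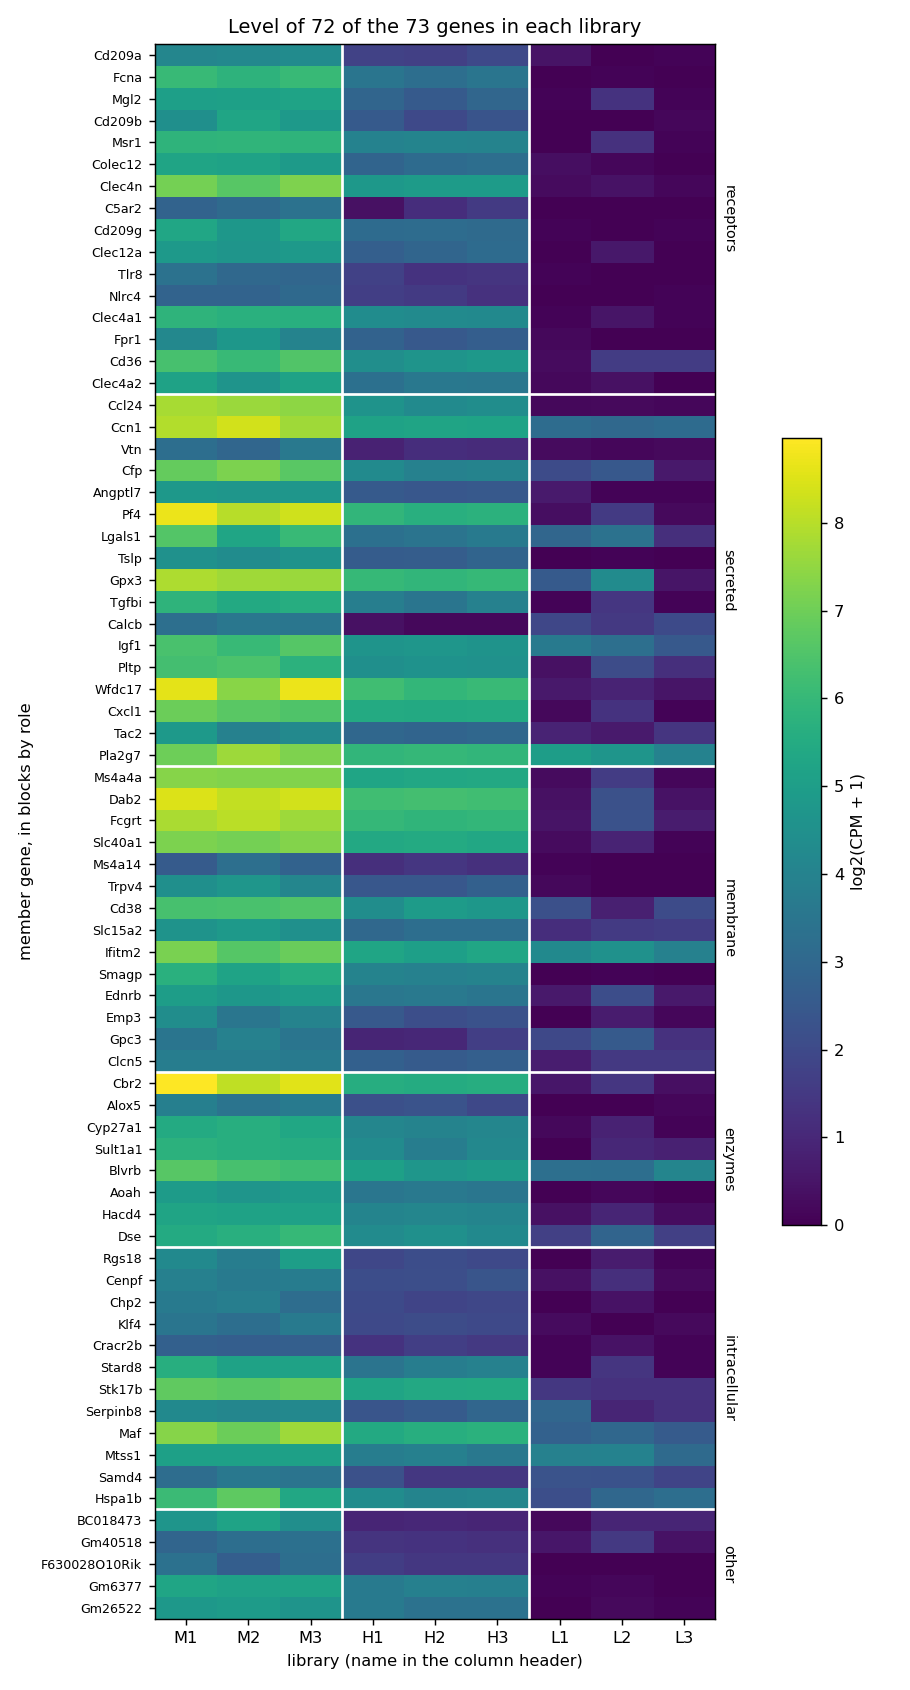
Level of 72 of the 73 genes (rows, in blocks by role) in each of the 9 libraries (columns, M, then H, then L), as log2(CPM + 1) in colour. The M columns are brightest in every row, and the L columns are darkest in most, with 50 of 73 genes at a median under 1 CPM in the L libraries.

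Promoter windows are shown for the 6 genes of highest ratio that have an entry in RefSeq's promoter table, since these genes shared their order over the letters and 2 known macrophage motifs could be looked for. Each window runs 250 bases before to 50 after the gene's start on GRCm38.p6, 5′ to 3′ on the strand of the gene. Capitals mark GAGGAA, a core of PU.1 sites, and TGCTGA, a core of Maf sites, searched on both strands, so that TTCCTC and TCAGCA are their other-strand forms.
Cbr2 (chr11:120731972-120732271, minus strand): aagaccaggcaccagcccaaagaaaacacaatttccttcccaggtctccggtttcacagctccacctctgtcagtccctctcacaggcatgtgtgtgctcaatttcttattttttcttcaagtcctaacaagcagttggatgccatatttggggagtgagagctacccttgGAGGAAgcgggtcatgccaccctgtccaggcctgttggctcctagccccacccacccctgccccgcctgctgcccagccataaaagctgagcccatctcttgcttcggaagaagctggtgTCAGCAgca
Cd209a (chr8:3748935-3749234, minus strand): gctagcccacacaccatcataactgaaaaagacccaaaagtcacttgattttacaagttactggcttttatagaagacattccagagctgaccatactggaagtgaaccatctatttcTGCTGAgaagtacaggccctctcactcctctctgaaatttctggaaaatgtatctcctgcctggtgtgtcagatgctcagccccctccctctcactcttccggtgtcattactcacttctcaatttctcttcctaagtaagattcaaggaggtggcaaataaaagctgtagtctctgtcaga
Ccn1 (chr3:145649936-145650235, minus strand): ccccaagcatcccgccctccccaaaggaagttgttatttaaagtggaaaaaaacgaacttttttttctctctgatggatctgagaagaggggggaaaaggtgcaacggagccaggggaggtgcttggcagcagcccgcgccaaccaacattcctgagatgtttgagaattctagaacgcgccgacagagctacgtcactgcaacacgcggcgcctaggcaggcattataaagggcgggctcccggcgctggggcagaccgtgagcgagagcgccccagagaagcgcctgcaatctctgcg
Vtn (chr11:78498870-78499169, plus strand): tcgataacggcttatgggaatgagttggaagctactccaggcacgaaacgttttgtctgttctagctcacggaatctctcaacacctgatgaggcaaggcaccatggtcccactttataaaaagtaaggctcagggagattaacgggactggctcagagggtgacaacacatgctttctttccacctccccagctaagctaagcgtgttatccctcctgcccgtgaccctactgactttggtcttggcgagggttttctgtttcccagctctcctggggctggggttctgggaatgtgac
Cfp (chrX:20931506-20931805, minus strand): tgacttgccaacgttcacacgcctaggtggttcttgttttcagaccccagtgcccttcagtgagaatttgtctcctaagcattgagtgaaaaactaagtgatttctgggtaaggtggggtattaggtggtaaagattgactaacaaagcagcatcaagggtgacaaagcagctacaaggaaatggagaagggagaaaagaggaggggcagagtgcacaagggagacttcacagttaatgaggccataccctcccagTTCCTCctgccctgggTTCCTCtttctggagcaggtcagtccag
Fcna (chr2:25627925-25628224, minus strand): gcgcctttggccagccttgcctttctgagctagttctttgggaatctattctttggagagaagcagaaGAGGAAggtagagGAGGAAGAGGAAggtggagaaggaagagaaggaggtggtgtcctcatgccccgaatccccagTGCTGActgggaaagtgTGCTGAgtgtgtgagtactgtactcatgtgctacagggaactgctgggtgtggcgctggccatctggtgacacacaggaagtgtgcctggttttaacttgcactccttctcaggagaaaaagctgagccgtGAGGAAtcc

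The Fcna window held 4 matches to GAGGAA and 2 to TGCTGA, and the Cbr2 window held 1 of each. The Cfp window held 2 matches to GAGGAA, the Cd209a window held 1 to TGCTGA, and the Ccn1 and Vtn windows held neither. A window was found for 58 of the 73 genes, 65 windows in all, and 15 genes had none. GAGGAA stood in 27 of the 65 windows (41.5%), against 28.3% of all 32851 windows of the table. TGCTGA stood in 24.6% of the windows of the 73 genes and 19.5% of all windows. The TATA box core TATAAA stood in 20.0% against 13.6%, and TGANTCA, the core bound by AP-1, in 9.23% against 7.81%. A match describes letters in a window and is not a binding site.

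Receptors that recognise microbial or altered-self structures formed a group of 16 genes, with 2.16 to 5.62 as the range of the ratio of the lowest M to the highest other library. Cd209a, a mouse relative of the lectin DC-SIGN that binds mannose-rich glycans, had the highest ratio of the group. It measured 16.3, 17.2 and 18.8 CPM in M1 to M3, 2.39, 2.23 and 2.90 CPM in H1 to H3, and 0.390, 0 and 0.0590 CPM in L1 to L3. Cd209b and Cd209g belong to the same family and lie near it on chromosome 8. Cd209b measured 21.1, 37.6 and 27.5 CPM in M1 to M3, 4.86, 2.93 and 4.04 CPM in H1 to H3, and 0, 0 and 0.118 CPM in L1 to L3. Cd209g measured 38.3, 26.2 and 40.7 CPM in M1 to M3, 7.75, 8.08 and 7.63 CPM in H1 to H3, and 0.0651, 0 and 0.0590 CPM in L1 to L3. In each of the 3 genes at least 1 L library had no count, and every M library lay above every H library, as the choice of genes required. The 3 genes lie between positions 3743397 and 4137707 of chromosome 8 (mm10), and reads shared among such similar genes make the division of counts between them uncertain.

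A second cluster of lectin genes, Clec4n, Clec4a1 and Clec4a2, lies on chromosome 6 between positions 122921848 and 123247021. Clec4n encodes Dectin-2, a receptor for fungal mannans. It measured 136, 98.3 and 151 CPM in M1 to M3, 26.5, 29.3 and 29.6 CPM in H1 to H3, and 0.195, 0.368 and 0.118 CPM in L1 to L3. Clec4a1 and Clec4a2 are related lectin receptors of myeloid cells. Clec4a1 measured 56.4, 50.8 and 49.7 CPM in M1 to M3, 19.8, 18.4 and 18.3 CPM in H1 to H3, and 0.0651, 0.429 and 0.0590 CPM in L1 to L3. Clec4a2 measured 35.3, 23.9 and 34.6 CPM in M1 to M3, 8.82, 11.1 and 10.8 CPM in H1 to H3, and 0.130, 0.307 and 0 CPM in L1 to L3. Mgl2, a galactose-type lectin of macrophages and dendritic cells, measured 32.6, 33.2 and 35.8 CPM in M1 to M3, 6.59, 4.85 and 6.87 CPM in H1 to H3, and 0.0651, 1.47 and 0.0590 CPM in L1 to L3. Clec12a, an inhibitory lectin receptor of myeloid cells, had a ratio of 3.13, with 24.6 to 27.6 CPM in M, 5.60 to 7.86 CPM in H and 0 to 0.491 CPM in L libraries. The H level of these 5 lectins was lower than the M level in every pair of libraries, as the choice of genes required. Their L level was at 1.47 CPM or less in every library.

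Among scavenger receptors, Msr1 (scavenger receptor A, which takes up modified lipoproteins) was one of the most even genes over the M libraries. It measured 55.5, 57.2 and 55.6 CPM in M1 to M3, 14.7, 15.7 and 15.2 CPM in H1 to H3, and 0, 1.41 and 0.0590 CPM in L1 to L3. Colec12, a scavenger receptor with a lectin domain, measured 36.3, 35.2 and 28.8 CPM in M1 to M3, 6.34, 7.70 and 8.39 CPM in H1 to H3, and 0.260, 0.123 and 0 CPM in L1 to L3. Cd36, which takes up fatty acids and oxidised lipoproteins, measured 81.8, 64.9 and 92.2 CPM in M1 to M3, 20.5, 24.3 and 26.2 CPM in H1 to H3, and 0.195, 2.02 and 2.01 CPM in L1 to L3. The ratios of the 3 genes were 3.53, 3.43 and 2.47.

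The rest of the group comprised soluble and intracellular sensors and receptors for chemoattractants. Fcna, which encodes ficolin A, a soluble lectin that starts the lectin pathway of complement, measured 65.4, 54.8 and 65.0 CPM in M1 to M3, 10.3, 8.55 and 10.3 CPM in H1 to H3, and 0, 0.0614 and 0 CPM in L1 to L3. C5ar2, a second receptor for the complement fragment C5a, had no count in any L library and measured 6.32, 7.50 and 9.46 CPM in M1 to M3 and 0.330, 1.23 and 1.91 CPM in H1 to H3. Fpr1, the receptor for bacterial formyl peptides, ranged from 15.0 to 25.9 CPM in M, from 4.70 to 6.01 CPM in H and from 0 to 0.130 CPM in L libraries. Tlr8, a sensor of RNA in endosomes, ranged from 6.78 to 9.35 CPM in M, 1.46 to 2.31 CPM in H and 0 to 0.0651 CPM in L libraries. Nlrc4, an inflammasome protein, ranged from 6.20 to 7.30 CPM in M, 1.45 to 2.14 CPM in H and 0 to 0.0590 CPM in L libraries. Both of these sensors were close to the minimum of 5 CPM that the choice of genes set.

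Secreted proteins formed the largest group, with 17 genes, whose ratios ranged from 2.01 to 7.31. Ccl24, also called eotaxin-2, a chemokine for eosinophils (chromosome 5, 135569937 to 135573049), had the highest ratio of any protein-coding gene, 7.31. It measured 224, 194 and 172 CPM in M1 to M3, 23.6, 18.6 and 20.2 CPM in H1 to H3, and 0.130, 0.184 and 0.118 CPM in L1 to L3. Pf4, platelet factor 4, a chemokine of platelets and border macrophages, measured 418, 254 and 317 CPM in M1 to M3, 58.8, 49.4 and 53.2 CPM in H1 to H3, and 0.260, 1.90 and 0.177 CPM in L1 to L3. Cxcl1, a chemokine for neutrophils, lies in the same cluster as Pf4 on chromosome 5 and had a ratio of 2.05, near the threshold. It measured 124, 102 and 90.4 CPM in M1 to M3, 43.5, 43.1 and 44.2 CPM in H1 to H3, and 0.130, 1.47 and 0.0590 CPM in L1 to L3. For each of the 3 chemokines the H libraries lay between the M and the L libraries without overlap, the place of M being set by the choice of genes.

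Several of the secreted proteins belong to complement or matrix. Most other listed complement and matrix genes at 5 CPM or more were higher in H than in M, as given with the function lists. Cfp encodes properdin, which stabilises the alternative-pathway convertase of complement, and measured 115, 144 and 101 CPM in M1 to M3, 18.8, 14.2 and 15.0 CPM in H1 to H3, and 3.19, 4.60 and 0.531 CPM in L1 to L3. Ccn1, a matricellular protein (formerly Cyr61), measured 245, 329 and 205 CPM in M1 to M3, 35.2, 36.7 and 35.8 CPM in H1 to H3, and 8.07, 7.18 and 7.73 CPM in L1 to L3. Unlike most of the 73 genes, Ccn1 was at 7.18 CPM or more in every L library. Vtn encodes vitronectin, an adhesion protein of plasma and matrix that pericytes also make. It measured 8.41, 6.78 and 11.3 CPM in M1 to M3, 0.824, 1.23 and 1.14 CPM in H1 to H3, and 0.195, 0.123 and 0.177 CPM in L1 to L3. Tgfbi, a matrix protein induced by TGF-beta, ranged from 42.4 to 56.3 CPM in M, 10.2 to 14.4 CPM in H and 0.0590 to 1.66 CPM in L libraries. Angptl7, an angiopoietin-like secreted protein, was even over the M libraries, with 26.4, 25.3 and 25.5 CPM in M1 to M3, 4.78, 4.39 and 4.73 CPM in H1 to H3, and 0.585, 0.0614 and 0.0590 CPM in L1 to L3.

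Wfdc17, a small secreted protein with a WAP domain, measured 391, 164 and 418 CPM in M1 to M3, 73.3, 60.0 and 66.5 CPM in H1 to H3, and 0.520, 0.859 and 0.413 CPM in L1 to L3. Of the remaining secreted proteins, Gpx3 is the extracellular glutathione peroxidase, Igf1 is an insulin-like growth factor that macrophages and some neurons make, and Pla2g7 is a phospholipase that inactivates platelet-activating factor. Gpx3 measured 235, 207 and 194 CPM in M1 to M3, 63.3, 58.5 and 63.4 CPM in H1 to H3, and 4.75, 19.0 and 0.413 CPM in L1 to L3. Igf1 measured 82.3, 65.8 and 95.9 CPM in M1 to M3, 23.9, 25.1 and 23.5 CPM in H1 to H3, and 11.9, 8.59 and 4.66 CPM in L1 to L3. Pla2g7 measured 125, 200.0 and 149 CPM in M1 to M3, 58.3, 61.9 and 58.4 CPM in H1 to H3, and 30.8, 24.4 and 14.9 CPM in L1 to L3. All 3 genes had counts in every L library. Pltp, a phospholipid transfer protein, had a ratio of 2.31, with 52.8 to 84.6 CPM in M, 21.2 to 22.9 CPM in H and 0.325 to 3.25 CPM in L libraries. Tslp, a cytokine that acts on dendritic cells, ranged from 19.5 to 23.3 CPM in M, 5.11 to 6.33 CPM in H and 0 to 0.0614 CPM in L libraries. Lgals1 (galectin-1) ranged from 37.8 to 94.1 CPM in M, 8.98 to 11.8 CPM in H and 1.30 to 9.51 CPM in L libraries.

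Calcb and Tac2 encode neuropeptides, which sets them apart by their known role from the genes on the border macrophage list. Calcb, the beta form of calcitonin gene-related peptide (chromosome 7, 114718643 to 114723365), measured 8.77, 10.9 and 10.4 CPM in M1 to M3, 0.330, 0.154 and 0.153 CPM in H1 to H3, and 2.73, 1.78 and 3.07 CPM in L1 to L3. It was the 1 gene of the 73 whose lowest L library lay above its highest H library. Its H levels rest on 4, 2 and 2 counts, close to what a count of 0 allows, so no ratio of M to H is given for it. Tac2, which encodes neurokinin B, measured 27.6, 14.3 and 17.5 CPM in M1 to M3, 7.00, 6.39 and 7.02 CPM in H1 to H3, and 0.846, 0.552 and 1.59 CPM in L1 to L3. For Tac2 the H libraries lay above the L libraries, as for most of the 73.

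Other membrane proteins and transporters numbered 14. Dab2, an endocytic adaptor for clathrin-coated pits placed with them for its role at the membrane, measured 360.0, 284 and 329.8 CPM in M1 to M3, 74.1, 77.1 and 74.3 CPM in H1 to H3, and 0.325, 3.62 and 0.354 CPM in L1 to L3. Fcgrt is the heavy chain of the neonatal Fc receptor, which returns IgG and albumin from endosomes, and measured 229, 265 and 199 CPM in M1 to M3, 62.0, 57.7 and 60.7 CPM in H1 to H3, and 0.390, 3.80 and 0.590 CPM in L1 to L3. Slc40a1 encodes ferroportin, the iron exporter of macrophages, and measured 147, 134 and 156 CPM in M1 to M3, 41.2, 43.3 and 40.7 CPM in H1 to H3, and 0.195, 0.859 and 0.0590 CPM in L1 to L3. Ms4a4a, a membrane protein of macrophages, measured 162, 154 and 155 CPM in M1 to M3, 38.0, 40.3 and 41.4 CPM in H1 to H3, and 0.195, 2.02 and 0.118 CPM in L1 to L3. In all 4 genes the L libraries were at 3.80 CPM or less and the H libraries at 38.0 to 77.1 CPM. Ms4a14, a neighbour of Ms4a4a on chromosome 19, was near the minimum, with 5.01, 8.72 and 6.11 CPM in M1 to M3, 1.32, 1.69 and 1.37 CPM in H1 to H3, and 0 to 0.0651 CPM in L libraries.

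Cd38, an enzyme at the cell surface that consumes NAD, ranged from 81.2 to 90.8 CPM in M, 19.9 to 29.1 CPM in H and 0.736 to 3.51 CPM in L libraries. Ednrb, the endothelin receptor type B, measured 30.6, 25.9 and 30.5 CPM in M1 to M3, 10.7, 11.4 and 10.3 CPM in H1 to H3, and 0.520, 3.37 and 0.531 CPM in L1 to L3. Trpv4, a calcium-permeable channel, ranged from 16.5 to 25.2 CPM in M, 4.37 to 5.72 CPM in H and 0 to 0.130 CPM in L libraries. Slc15a2, a peptide transporter, and Clcn5, a chloride and proton exchanger of endosomes, had ratios of 2.60 and 2.11. Ifitm2, an interferon-induced membrane protein, was also abundant in the L libraries and measured 143, 97.5 and 119.9 CPM in M1 to M3, 37.5, 32.1 and 38.3 CPM in H1 to H3, and 18.2, 22.3 and 14.4 CPM in L1 to L3. Gpc3, a heparan sulfate proteoglycan, measured 10.3, 14.5 and 10.3 CPM in M1 to M3, 0.906, 1.00 and 2.14 CPM in H1 to H3, and 2.86, 4.79 and 1.42 CPM in L1 to L3. H3 lay above the lowest L library, L3, so that the H and L libraries overlapped. The remaining members of the group, Emp3 and Smagp, had ratios of 2.27 and 2.36 and were under 1 CPM in every L library.

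Of the 9 enzymes, the highest ratio was that of Cbr2, a carbonyl reductase of the mouse (chromosome 11, 120729489 to 120732114). It measured 501, 276 and 376 CPM in M1 to M3, 47.2, 45.0 and 46.9 CPM in H1 to H3, and 0.455, 1.66 and 0.295 CPM in L1 to L3. The median M level was 8.03 times the median H level. Blvrb, a biliverdin reductase of heme breakdown, measured 98.6, 80.2 and 72.5 CPM in M1 to M3, 33.5, 25.5 and 28.5 CPM in H1 to H3, and 8.78, 8.41 and 16.1 CPM in L1 to L3. Blvrb was at 8.41 CPM or more in every L library, whereas Cbr2 was at 1.66 CPM or less there. Cyp27a1, a sterol hydroxylase, ranged from 39.3 to 48.6 CPM in M, 15.3 to 16.4 CPM in H and 0.0590 to 0.798 CPM in L libraries. Alox5, which starts leukotriene synthesis, ranged from 9.95 to 13.6 CPM in M, 2.82 to 3.93 CPM in H and 0 to 0.118 CPM in L libraries. Aoah, which removes acyl chains from bacterial lipopolysaccharide, ranged from 24.3 to 29.2 CPM in M, 10.5 to 11.2 CPM in H and 0 to 0.123 CPM in L libraries. The sulfotransferase Sult1a1, the fatty acid dehydratase Hacd4 and the dermatan sulfate epimerase Dse had ratios of 2.39, 2.09 and 2.05.

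Among the 12 nuclear proteins and intracellular regulators, Maf is a transcription factor of macrophages and also of some interneurons. It measured 162, 122 and 202 CPM in M1 to M3, 43.2, 48.0 and 51.7 CPM in H1 to H3, and 5.92, 6.99 and 5.02 CPM in L1 to L3. Klf4, another transcription factor of the group, measured 10.3, 8.51 and 11.8 CPM in M1 to M3, 2.97, 3.23 and 2.90 CPM in H1 to H3, and 0.195, 0 and 0.177 CPM in L1 to L3. Maf was above 5 CPM in every L library and Klf4 was at 0.195 CPM or less there. Rgs18, a regulator of G protein signalling in blood cells, had the highest ratio of the group, 3.79, and measured 18.2, 12.8 and 32.0 CPM in M1 to M3, 2.72, 3.39 and 2.90 CPM in H1 to H3, and 0, 0.614 and 0.0590 CPM in L1 to L3. Stk17b, a kinase of the death-associated family, ranged from 102 to 114 CPM in M, 36.6 to 42.5 CPM in H and 1.41 to 1.76 CPM in L libraries. Cenpf, a kinetochore protein, ranged from 11.8 to 14.1 CPM in M, 3.30 to 4.12 CPM in H and 0.177 to 1.29 CPM in L libraries. Of the 12 cell division genes in the tables, Cenpf not among them, 1 reached 5 CPM in the lowest M library and 0 met the levels. Mtss1, an actin and membrane-shaping protein, was almost equal over the M libraries, with 33.5, 33.7 and 33.3 CPM in M1 to M3, 12.9, 14.2 and 11.1 CPM in H1 to H3, and 14.2, 14.8 and 7.56 CPM in L1 to L3. Its H and L libraries overlapped. Samd4, an RNA-binding regulator of translation, also had overlapping H and L libraries and measured 8.30, 11.0 and 9.83 CPM in M1 to M3, 3.71, 1.77 and 1.75 CPM in H1 to H3, and 3.90, 3.74 and 2.54 CPM in L1 to L3. Stard8, Chp2, Cracr2b and Serpinb8 had ratios of 2.36 to 2.66.

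No role is given here to 5 genes. BC018473, an antisense RNA gene by annotation (ENSMUSG00000056032, chromosome 11, 116752167 to 116759373), had the highest ratio of all, 20.8. It measured 24.8, 35.9 and 20.8 CPM in M1 to M3, 0.906, 1.00 and 0.916 CPM in H1 to H3, and 0.130, 0.920 and 0.886 CPM in L1 to L3. The H and L libraries of this gene overlapped, so the contrast was between M and all other libraries. Gm40518, a long intergenic RNA gene on chromosome 9, measured 6.63, 8.43 and 8.86 CPM in M1 to M3, 1.57, 1.46 and 1.37 CPM in H1 to H3, and 0.455, 1.78 and 0.354 CPM in L1 to L3. F630028O10Rik, annotated as antisense RNA on chromosome X, measured 9.19, 5.48 and 8.57 CPM in M1 to M3, 2.06, 1.77 and 1.75 CPM in H1 to H3, and 0, 0 and 0 CPM in L1 to L3, and its span holds the microRNA gene Mir223. Gm6377 overlaps Sh3bgrl on the same strand and measured 37.9, 34.5 and 35.0 CPM in M1 to M3, 11.6, 13.9 and 13.7 CPM in H1 to H3, and 0.0651, 0.123 and 0 CPM in L1 to L3. Gm26522 lies on the opposite strand inside the span of Ctsc, a lysosomal protease gene, and measured 26.8, 29.7 and 24.1 CPM in M1 to M3, 11.9, 9.39 and 9.31 CPM in H1 to H3, and 0, 0.184 and 0.0590 CPM in L1 to L3. Ctsc itself measured 666, 672 and 716 CPM in M1 to M3, 427, 511 and 457 CPM in H1 to H3, and 7.22, 20.4 and 3.54 CPM in L1 to L3. No source used here states the strand setting of the counting, so reads of Gm26522 and Ctsc cannot be told apart. In all, 30 of the 73 genes overlap another annotated gene, 14 of them on the same strand and 21 on the other.

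**Figure D2:**
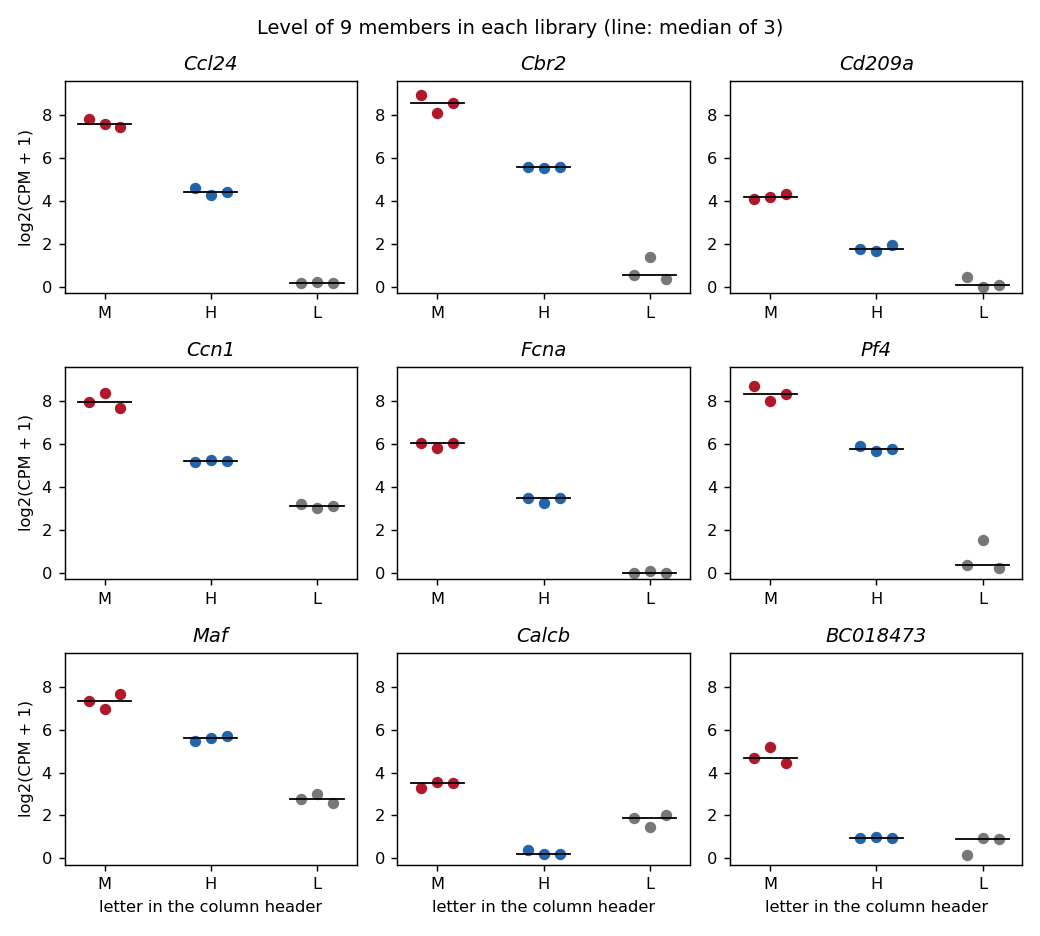
Level of 9 of the genes in each library as log2(CPM + 1), with points for the M (red), H (blue) and L (grey) libraries and a line at their median. The M points are highest in every panel, the H points lie above the L points for most of the genes, and Calcb has its L points above its H points.

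Levels of different genes can be compared only per length, for which the deposited FPKM values (fragments scaled to gene length and library total) were used. On this scale Wfdc17 led, with a median of 733 FPKM over the M libraries, followed by Pf4 with 439 FPKM and Cbr2 with 283 FPKM. Ms4a4a had 185, Ifitm2 183, Ccl24 150.2, Ccn1 121, Gpx3 114, Fcgrt 109 and Clec4n 95.8 FPKM as the median over the M libraries. The median over all 73 genes was 12.5 FPKM, and the lowest was 0.82 FPKM.

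The order of H and L was not set by the choice of genes, which used only the highest of the 6 libraries. The lowest H library lay above the highest L library in 65 of the 73 genes, against 26.1% of the 14799 genes that averaged 1 CPM or more. It was at least 2 times the highest L library in 60 of the 73, against 11.1% of those genes. The lowest L library lay above the highest H library in 1 of the 73, Calcb, against 24.1% of those genes. The other 7 genes had H and L libraries that overlapped: BC018473, Gm40518, Lgals1, Serpinb8, Mtss1, Gpc3 and Samd4. The 14799 genes are a wider set than the 10620 genes at 5 CPM in the lowest M library from which the 73 were drawn. These counts are a description and no test between the letters, since the labels put no library in a group.

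**Figure D3:**
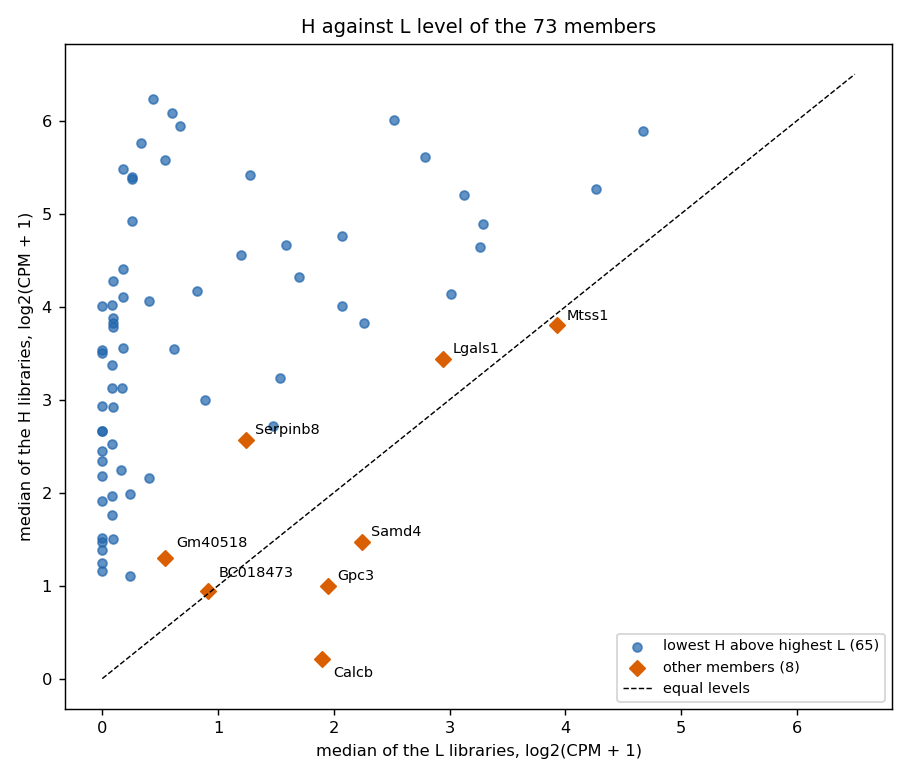
Median of the H libraries (vertical axis) against median of the L libraries (horizontal axis) for each of the 73 genes, both as log2(CPM + 1), with the dashed line at equal levels. The 65 genes whose lowest H library lay above the highest L library are circles, most of them at the left edge, and the other 8 are named diamonds.

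Within the L libraries, the 73 genes fell into those near 0 and those with measurable levels. The median L level was under 1 CPM for 50 genes and at least 1 CPM for 23. The highest L library was under 1 CPM for 36 genes and at least 5 CPM for 12. The 12 were Ccn1, Lgals1, Gpx3, Igf1, Ifitm2, Serpinb8, Maf, Mtss1, Blvrb, Hspa1b, Dse and Pla2g7, none of which is on the border macrophage list. L2 was the highest of the L libraries for 45 of the 73 genes, against 39.5% of the 14799 genes that averaged 1 CPM or more, L1 for 19 and L3 for 9. The border macrophage and microglia lists had the same order within L, both being highest in L2 and lowest in L3. Nearly all of the border macrophage sum in L came from genes outside the 73. With its 15 genes of the 73 it was 263, 316 and 215 CPM in L1 to L3. Without them it was 259, 299 and 211 CPM. The order of this list within L therefore does not describe the 15.

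The M libraries differed among themselves as well. The ratio of the highest to the lowest M library had a median of 1.36 over the 73 genes and reached at least 1.5 in 22 of them, against 27.3% of the 10620 genes at 5 CPM in the lowest M library. It was at least 2 in 4 genes. M2 was the lowest M library in 36 of the 73 genes, against 32.5% of the same 10620 genes, M3 in 25 and M1 in 12. The 5 widest genes were Hspa1b, Wfdc17, Lgals1, Rgs18 and Tac2. Hspa1b, an inducible heat shock protein nearly identical to its neighbour Hspa1a, measured 67.9, 105 and 40.5 CPM in M1 to M3, 19.5, 15.6 and 16.6 CPM in H1 to H3, and 3.45, 7.06 and 8.38 CPM in L1 to L3, so that M2 was highest. For Wfdc17, M2 was lowest at 164 CPM, beside 391 CPM in M1 and 418 CPM in M3. In Mtss1, Msr1 and Angptl7 the highest M library was at most 1.04 times the lowest. In the H libraries the ratio of highest to lowest had a median of 1.21 and reached 1.5 in 7 genes.

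The 73 genes were set beside lists of cell type markers. The border macrophage list has 31 genes, of which 15 are among the 73 and 24 meet the levels once the genes left out by name are counted. It summed to 5064, 3879 and 4574 CPM in M1 to M3, 1179, 1167 and 1170 CPM in H1 to H3, and 263, 316 and 215 CPM in L1 to L3. Without the 15, it summed to 2179 to 2566 CPM in M, 761 to 774 CPM in H and 211 to 299 CPM in L libraries, where Igfbp4 and Gas6 made up most of the L sum. The order of the 15 was set by their selection. Of the other 15 listed genes at 5 CPM or more in an M or H library, 14 had their lowest M library above their highest H library, and the exception was Timd4. The 14 include Mrc1, Cd163, Lyve1, F13a1, Stab1, Ms4a7, Folr2, Cd209f and Clec10a, which met the levels and were left out by name. The order of these genes was therefore fixed as well, and Siglec1 was also left out by name. Among all 12311 genes at 5 CPM or more in an M or H library outside the 73, the share with lowest M above highest H was 24.4%. The share with the opposite order, lowest H above highest M, was 22.7%. The count of 14 cannot be read against these shares, since most of it was fixed by the levels. The median of M over H for the other 15 listed genes was 3.41. No gene of the list was at 0 in all M libraries.

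The microglia list had another order over the letters. Its 18 genes include none of the 73, and all 18 had their lowest H library above their highest M library, against the 22.7% of all genes. It summed to 5524, 4597 and 4513 CPM in M1 to M3, 15656, 14332 and 14869 CPM in H1 to H3, and 81.1, 144 and 25.8 CPM in L1 to L3. The median of M over H was 0.158. P2ry12, a purine receptor of microglia, measured 41.6 to 46.3 CPM in M, 212 to 246 CPM in H and 0.118 to 2.15 CPM in L libraries. Border macrophage genes and microglial genes thus had opposite orders between M and H and the same lowest letter, L. For 24 of the 31 border macrophage genes the order between M and H was fixed by the levels that chose or would have chosen them. Oligodendrocyte genes were also lower in M, at 95.6 to 162 CPM, than in H, at 598 to 621 CPM, and summed to 30.6 to 61.0 CPM in L. The B and plasma cell list summed to 207 to 361 CPM in M, 3555 to 3687 CPM in H and 256 to 376 CPM in L libraries. Inhibitory neuron genes had the lowest M above the highest H library for 6 of the 8 genes at 5 CPM or more, against 24.4% of all such genes outside the 73. The list summed to 2028 to 3407 CPM in M, 1287 to 1580 CPM in H and 2701 to 3349 CPM in L libraries. What part the amount of macrophage, microglial or other cells had in the levels of the 73 genes was not tested.

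**Figure D4:**
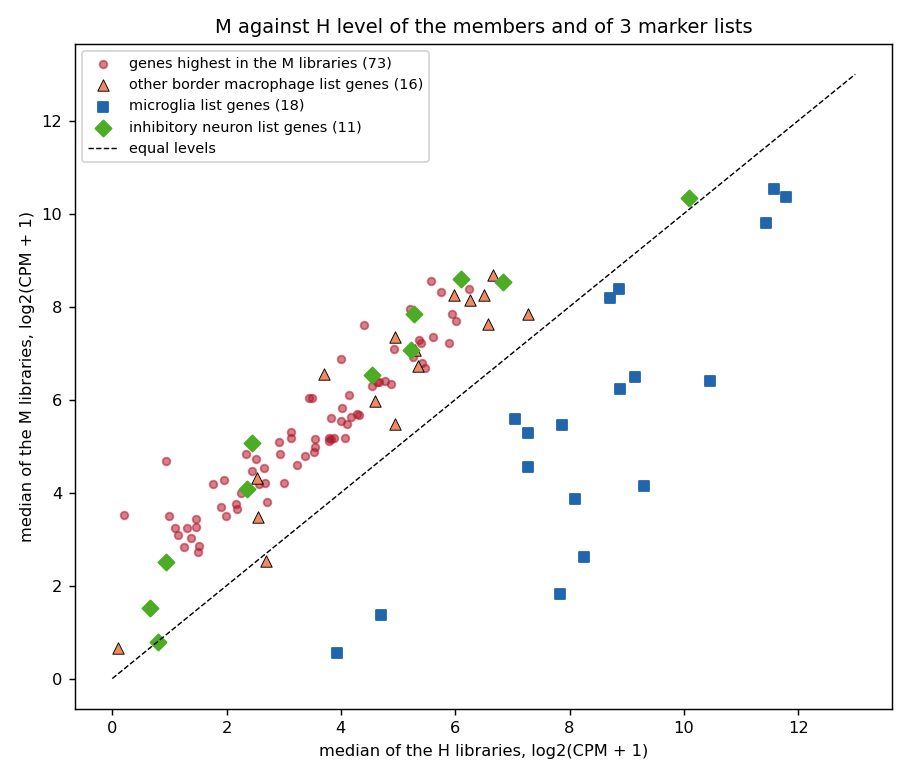
Median of the M libraries (vertical axis) against median of the H libraries (horizontal axis) for the 73 genes and for 3 marker lists, both as log2(CPM + 1), with the dashed line at equal levels. The 73 genes and the border macrophage genes lie above the line, with 1 exception on the list, and the 18 microglia genes lie below it.

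Of the 73 genes, 16 were on some cell type list and 35 on any list, while 38 were on none. Lectin, chemokine and scavenger receptor genes outside the 73, among them genes left out by name, did not share 1 order over the letters. Among all genes at 5 CPM or more in an M or H library outside the 73, 24.4% had the lowest M above the highest H library. The reverse order was found in 22.7% of them. Of the 21 C-type lectins and Siglecs in the tables, 8 are among the 73 and 10 meet the levels with the genes left out counted. Outside the 73, 9 of these were at 5 CPM or more in an M or H library, of which 5 had the lowest M above the highest H library (Clec10a, Cd209f and Siglec1 of them left out by name) and 4 the opposite order. These 4 include Clec7a (Dectin-1, a receptor for fungal glucans), at 13.4 to 16.4 CPM in M, 165 to 185 CPM in H and 0 to 1.35 CPM in L libraries, and Siglech, at 15.4 to 34.3 CPM in M, 149 to 162 CPM in H and 0.177 to 1.47 CPM in L libraries. Of 24 chemokines, 3 are among the 73. Of the 17 other chemokines at 5 CPM or more, 3 had the lowest M above the highest H library (Ccl2 and Ccl7 of them left out by name) and 12 the reverse. Over all genes at this level outside the 73 the shares were the 24.4% and 22.7% given above. Ccl3 and Ccl4, chemokines of activated microglia and macrophages, were of the second kind. Ccl4 measured 188, 185 and 144 CPM in M1 to M3, 923, 787 and 850.2 CPM in H1 to H3, and 1.43, 1.23 and 0.649 CPM in L1 to L3.

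The other function lists also divided. Of 19 scavenger and endocytic receptors, 4 are among the 73 and 8 meet the levels with the genes left out counted. Of the 11 others at 5 CPM or more, 5 were higher in all M than in all H libraries and 6 had the reverse order, against 24.4% and 22.7% of all such genes. The 5 include Mrc1, Cd163, Stab1 and Lyve1, which met the levels and were left out by name. Of 14 Ms4a genes, 2 are among the 73. The lowest M lay above the highest H library in 4 of the 6 others at 5 CPM or more, against 24.4% of all such genes. Among these 4 is Ms4a7, left out by name. Of 19 alternative activation genes, 3 are among the 73 and 7 meet the levels with the genes left out counted. Of the lysosomal proteases and hydrolases 0 of 19 are among the 73, and 15 of 17 at 5 CPM or more were higher in all H than in all M libraries. The same held for 10 of 10 MHC class II genes, for 14 of 17 inflammatory cytokine and signalling genes and for 13 of 16 interferon-stimulated genes outside the 73, against 22.7% of all genes at this level. The 3 lists had 0, 0 and 1 genes among the 73. Since the 73 are 0.687% of the genes at 5 CPM in the lowest M library, counts of 0 or 1 on lists this short are no result about the lists. Iron and heme genes had 2 of 15 among the 73, lipid genes 3 of 23, and macrophage transcription factors 2 of 26. Outside the 73 and at 5 CPM or more, 5 of 11 iron and heme genes had the lowest M above the highest H library and 3 the reverse. For lipid genes the counts were 3 and 10 of 15, and for transcription factors 5 and 9 of 21. Complement and extracellular matrix genes had 1 of 17 and 1 of 22 among the 73. For each of these 2 lists, 3 of 12 others had the lowest M above the highest H library and 9 the reverse. The shares over all such genes were 24.4% and 22.7%.

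Of the 17 genes left out by name, the 11 that met the levels had ratios of 2.38 to 4.18, within the range of the 73. They were F13a1, Mrc1, Ccl2, Lyve1, Cd209f, Ccl7, Stab1, Folr2, Cd163, Ms4a7 and Clec10a. F13a1, which encodes coagulation factor XIII, had the highest ratio, with 346, 304 and 293 CPM in M1 to M3, 61.5, 70.1 and 62.4 CPM in H1 to H3, and 0.781, 6.26 and 0.295 CPM in L1 to L3. The other 6, Apoe, Siglec1, Lyz2, Ccl12, Ccl8 and Ccr2, had ratios of 0.105 to 1.68. Ccl8 was lower in M, at 49.7 to 56.2 CPM, than in H, at 117 to 137 CPM, with 0.177 to 0.307 CPM in L.

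The threshold of 2 cut a continuous range. Just inside it were Dse (2.05), Cxcl1 (2.05), Tac2 (2.03), Pla2g7 (2.01) and Gm26522 (2.01). Just outside were the ubiquitin ligase gene Wwp1 (1.99), the metalloprotease gene Adam33 (1.96), the glucocorticoid-induced gene Tsc22d3 (1.96) and the GTPase regulator gene Arhgap19 (1.95). Wwp1 measured 96.0, 92.5 and 105 CPM in M1 to M3, 43.5, 46.4 and 43.3 CPM in H1 to H3, and 23.1, 25.7 and 16.1 CPM in L1 to L3.

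The genes outside the 73 whose log2(CPM + 1) followed the mean of the 73 most closely over the 9 libraries were Akr1c13 (Pearson r 0.991), Tfec (0.991), Dynlt1-ps1 (0.991), Myo7a (0.987) and Dok3 (0.987). The libraries share letters and depth, and the values are given as a description. Akr1c13 and Tfec had ratios of 2.05 and 2.41 and missed only the minimum of 5 CPM. Tfec, a transcription factor of macrophages, measured 5.90, 4.76 and 5.14 CPM in M1 to M3, 1.98, 1.69 and 1.22 CPM in H1 to H3, and 0 to 0.0614 CPM in L libraries.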

How the data were processed

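RNA was sequenced from sorted mouse hippocampal cells in 9 libraries. Per the file headers, the deposited tables hold raw counts for each gene of a library. They also hold FPKM values, which the authors scaled for gene length and sequencing depth. Per the submitters' processing notes, the tools were HTSeq 0.6.1, HISAT2 2.0.1, Trimmomatic 0.30 and bcl2fastq 2.17.1.14, with build mm10. No source used here states the strand setting or how reads matching several genes were counted. Values of near-identical and overlapping genes are therefore uncertain.

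Counts were divided by the library total and multiplied by 1e+06. FPKM and count ratios differed by at most 0.0837% over 3642 genes. Symbols and coordinates came from GENCODE M21, which held 51633 of the 51912 identifiers. Motifs were searched in RefSeq promoter windows. The labels put 0 of 9 libraries in a group, so no test between the letters and no mean is given, and replicate numbers are names only. The genes and lists were chosen, and roles assigned, with earlier results of these data known.

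Named genes were the 20 of highest ratio, the 15 of highest median M level, the 5 on each side of the threshold, up to 4 per list, the 5 with the widest M spread and the 5 at each end of the ratio of H to L level. The 5 genes outside the 73 with the most similar profile and the noncoding members were named as well, and further members were named for completeness after their values were seen. Alternatives were the deposited FPKM, totals without mitochondrial genes, size factors from DESeq2 1.42.0, TMM factors from edgeR 4.0.16, other thresholds and leaving out each library. A chi-square over genes of 10 or more counts compared each pair of libraries, to find libraries that agree within sampling noise. Calculations used Python 3.11.15, pandas 2.3.3, numpy 2.4.6, scipy 1.17.1 and R 4.3.3, and plots matplotlib 3.10.9. Some genes that these rules name are not reported here.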

Additional observations from a re-analysis of the deposited data

How the results depend on the processing

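With TMM factors, DESeq2 size factors, totals without mitochondrial genes or deposited FPKM, 69 to 74 genes met the levels and at least 69 were shared with the 73. The median log2 ratio of the lowest M to the highest other library was 1.41, against 1.33 to 1.40 over these 4 scalings and 1.26 with a pseudocount of 1 CPM. Leaving out each library in turn gave 74 to 93 genes and median log2 ratios of 1.41 to 1.61, since fewer libraries must meet the levels. The lowest H library lay above the highest L library in 65 genes under each of the 4 scalings, and in 65 to 68 genes without a library. Leaving out a library cannot lower this last count. The number of genes followed the thresholds: 204 without a minimum level, 94 with a minimum of 1 CPM and 60 with 10 CPM, and 127 at 1.5-fold, 27 at 3-fold and 12 at 4-fold. Keeping the genes left out by name gave 84. Over the 4 scalings and the 9 recalculations without a library, 607 of 650 ratios of 50 named genes moved by less than 1 SD of that gene's log2 level over the M libraries, and 43 moved by more. Leaving out a library changes a ratio only where that library held the gene's lowest M or highest other level, and can then only raise it. Many of the 607 were therefore fixed in advance and are no measure of stability. Tac2, Gm26522 and Cxcl1 were no longer at 2-fold with TMM factors (log2 ratios of 0.96, 0.98 and 1.00), nor with DESeq2 size factors (0.93, 0.95 and 0.97), where Hspa1b (1.00) also fell just short. No paired analysis was possible because the labels give no groups that share replicate numbers and no result comes from a test. Genes near 5 CPM and levels near 0 in the L libraries are limited by depth.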
